A study of Mus musculus with 7 samples.

Results

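The genes described here encode the oocyte linker histone, histone variants that oocytes use in place of the canonical histones, and 2 proteins that handle histones or their mRNAs. The list held 10 genes: H1foo, H1f0, H2afz, H2afv, H2afx, H2afy, H3f3a, H3f3b, Slbp and Hira. A gene was taken when the deposited transcript table gave its name to a transcript on the strand of the gene, which found 4 of the 10 (H1foo, H2afv, H3f3a and H3f3b) among 33437 transcripts. Another 4 (H2afz, H2afy, Slbp and Hira) had a transcript that the table named after a neighbouring or opposite-strand gene, and these were matched by position after the files were seen. H1f0 and H2afx had no transcript of their own, because the table joins each of them to a neighbouring gene.

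The data were RNA-seq libraries of GV oocytes, which have reached full size and still hold their germinal vesicle nucleus in meiotic arrest, with 1 oocyte in each library. The 4 Setd1b cKO libraries came from females with floxed Setd1b alleles that carried Gdf9-Cre, a transgene that recombines in oocytes from early folliculogenesis onwards. The 3 Setd1b WT libraries came from females labelled as floxed without Gdf9-Cre. The breeding scheme of the study also counts heterozygous females with Gdf9-Cre as WT, while the labels give all 3 as Gdf9-Cre negative. All were labelled C57BL6 (C57BL/6OlaHsd in the methods of the study) and 21 days old, and no label ties an oocyte to its mother, so p-values measure the spread between these oocytes. SETD1B is a methyltransferase that places H3K4me3 on chromatin, and the comparison asks how its loss during oocyte growth changes transcript levels. Values are reads per 1000000 mapped reads (RPM), and 1 read was worth 0.0771 to 0.117 RPM in libraries of 8582493 to 12972366 mapped reads.

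A nucleosome wraps DNA around a histone octamer, and a linker histone (H1) binds where the DNA enters and leaves it. Growing oocytes do not replicate their DNA, so they depend on histones that can be made and placed outside S phase. H1FOO is the linker histone specific to oocytes and early embryos, and it gives way to somatic H1 forms after fertilization. H3.3, encoded by H3f3a and H3f3b, replaces canonical H3 at transcribed genes with the help of the HIRA chaperone complex. H2A.Z, encoded by H2afz and H2afv, sits beside transcription start sites, whereas macroH2A (H2afy) carries a large extra domain and is mostly found in silent chromatin. Canonical histone mRNAs end in a stem-loop and not in a poly(A) tail, and the stem-loop binding protein SLBP is needed to process, store and translate them. The exonuclease ERI1 binds the same stem-loop and acts in the decay of these mRNAs.

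The stem-loop is the site that SLBP and ERI1 bind, and most variant genes lack it, so the sites are shown here. The 16 bases of the pattern were searched on the sense strand of the coding transcripts in GENCODE M21 (GRCm38) as GGCNCT, the loop TTTN and AGNGCC in a row, where N is any base. Of 21877 coding genes, 45 (0.206%) held the pattern. Among the 10 listed genes it was found in H2afx alone, a variant known to make both stem-loop and polyadenylated mRNAs, and no match says only that these letters were not in the transcripts searched. Of the 17 other coding histone genes in the table, 10 held it, among them Hist1h1c, a somatic linker histone gene, and Hist1h4d and Hist1h4c, which encode canonical H4. The sites are printed 5′ to 3′ with the stem-loop in capitals and 5 bases on each side, for H2afx (chr9:44335235-44335260, plus strand), Hist1h1c (chr13:23739507-23739532, plus), Hist1h4d (chr13:23581945-23581970, plus) and Hist1h4c (chr13:23698084-23698109, minus).
H2afx: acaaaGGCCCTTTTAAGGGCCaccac
Hist1h1c: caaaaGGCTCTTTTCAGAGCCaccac
Hist1h4d: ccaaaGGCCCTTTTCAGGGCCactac
Hist1h4c: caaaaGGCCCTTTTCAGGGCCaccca

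None of the 4 genes found by name, and none of the 8 found by name or position, passed the threshold of an adjusted p under 0.05 with a change over 2-fold between Setd1b cKO and WT oocytes (limma, Benjamini-Hochberg over 18179 transcripts tested). Over all transcripts tested, 5.71% passed, 683 higher and 355 lower in cKO. With the adjusted p alone, none of the 8 passed, against 6.15% of all transcripts. In 1 of the 8, H3f3b, every cKO library was higher than every WT library, and 20.3% of all transcripts had such a gap between the genotypes in either direction. Without the adjustment, 2581 transcripts were higher and 1367 lower at a p under 0.05, and the lowest unadjusted p among the 8 was 0.124 (H3f3b). The median log2 fold change of all transcripts was 0.12, and it was 0.19 when libraries were scaled to the reads within transcripts and -0.03 when each was centred on its median gene.

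Levels can be compared between genes only per length, and RPM was divided by the union of the GENCODE exons for this. In WT, H1foo had a mean level of 5262 RPM per kb and H3f3b 468 RPM per kb. Slbp (87.3 RPM per kb, 67.1 to 99.5 over libraries) and H3f3a (78.8 RPM per kb, 69.5 to 88.8) followed, and these neighbours overlapped. H2afz stood at 45.7 RPM per kb (40.9 to 50.2). H2afv (3.82 RPM per kb), H2afy (1.92) and Hira (0.124) were far lower, with no overlap between these 3 in WT. The oocyte transcripts differ in extent from the GENCODE exons, which limits these levels to a rough order.

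**Figure D1:**
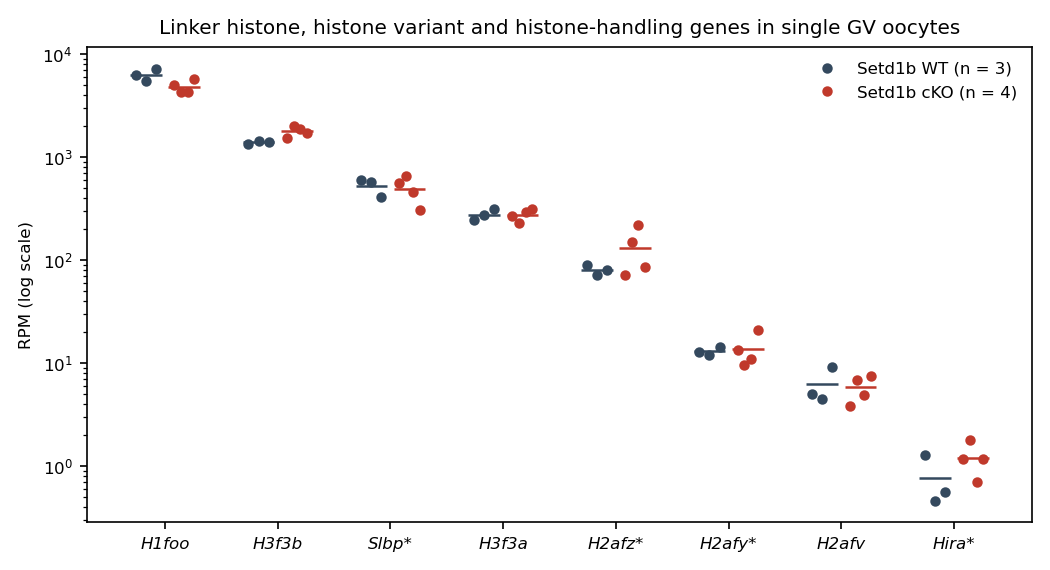
Level of each gene in RPM (vertical axis, log scale) in every library, with points for single oocytes (3 WT and 4 cKO) and lines for group means. An asterisk marks genes matched by position, and H3f3b is the gene whose cKO libraries (1537 to 2006 RPM) all lay above the WT libraries (1339 to 1444 RPM).

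H1foo (chr6:115944640-115952282, GRCm38) was among the most abundant transcripts of the oocyte in both genotypes. It took 0.426% to 0.725% of all mapped reads and ranked between 4 and 8 of all transcripts in every library. The cKO libraries had 5059, 4256, 4284 and 5701 RPM, and the WT libraries 6224, 5483 and 7253 RPM. Its highest cKO library lay above the lowest WT library, so the groups overlapped. The mean was 4825 ± 693 RPM (SD, n = 4) in cKO and 6320 ± 889 RPM (SD, n = 3) in WT. The log2 fold change was -0.39 (SE 0.25, 95% interval -0.95 to 0.17, adjusted p = 0.418 by limma). It was below 0 in 20 of 21 alternatives, at -0.55 with each library centred on its median gene, and was 0.04 after quantile normalisation. Quantile normalisation sets a value by its rank. H1foo ranked between 4 and 8 throughout, so that setting can show little of a change in level. The interval leaves room for a fall to 0.519 of the WT level and for a rise to 1.12 times it.

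The 5 genes whose profile was most like that of H1foo included 1 histone chaperone gene, Chaf1a. Over the 7 libraries, Pearson's r with H1foo on log2(RPM + 1) was 0.980 for Gm32442, 0.977 for Chaf1a, 0.974 for Pycrl, 0.971 for Gm20548 and 0.965 for Gm17018, the highest values among 6151 genes that averaged 16 RPM or more. These are descriptions over 7 points that share library depth and scaling. Chaf1a encodes the large subunit of CAF-1, which deposits new H3 and H4 behind replication forks. Its cKO libraries had 79.2, 70.8, 65.7 and 87.7 RPM and its WT libraries 90.8, 88.6 and 114 RPM. These groups did not overlap, which held for 20.3% of all transcripts. The log2 fold change of Chaf1a was -0.36 (SE 0.21, adjusted p = 0.349 by limma).

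The H3.3 genes differed in level and not in product. Over coding sequences of 408 bases they differ at 95 bases and in 83 codons, yet their 136 residues are the same, so reads can mostly be told apart while the protein cannot. H3f3b (chr11:116019596-116030762) had 1537, 2006, 1897 and 1733 RPM in the cKO libraries and 1339, 1444 and 1398 RPM in the WT libraries. Every cKO library was above every WT library. The transcript runs past the gene on both sides, with an overlap of 0.542 of the union, so part of its reads may not be of H3f3b. The mean was 1793 ± 204 RPM (SD, n = 4) against 1393 ± 53.0 RPM (SD, n = 3), with a log2 fold change of 0.36 (SE 0.21, 95% interval -0.12 to 0.83, adjusted p = 0.376 by limma). It stayed above 0 under each alternative, from 0.20 with median centring to 0.60 after quantile normalisation, and the adjusted p ran from 0.158 to 0.690.

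H3f3a (chr1:180803024-180814181) had nearly the same mean in both genotypes. The cKO libraries had 269, 229, 297 and 312 RPM and the WT libraries 244, 274 and 311 RPM, which overlapped throughout. The mean was 277 ± 36.6 RPM (SD, n = 4) in cKO and 276 ± 33.9 RPM (SD, n = 3) in WT, and the 95% interval of the log2 fold change was -0.45 to 0.45. A transcript on the opposite strand, Gm17275, crosses the gene and had 1.40 to 1.75 times its RPM in each library. Whether the counting used strand is not stated, and the study describes no library step that keeps strand. Reads where H3f3a and Gm17275 overlap therefore cannot be told apart. The same limit may apply to H2afz, H2afy and Slbp, whose transcripts the table names after genes on the opposite strand. Gm17275 itself had a log2 fold change of 0.14 (SE 0.23, adjusted p = 0.790 by limma).

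The share of H3.3 reads that came from H3f3b does not depend on a scaling that multiplies a library by 1 factor. It was 85.1%, 89.8%, 86.5% and 84.7% in the cKO libraries and 84.6%, 84.1% and 81.8% in the WT libraries. The groups did not overlap, but the gap between the lowest cKO and the highest WT library was small. The mean log2 ratio of H3f3a to H3f3b was -2.69 ± 0.30 (SD, n = 4) in cKO and -2.34 ± 0.15 (SD, n = 3) in WT, a difference of -0.36, which was -0.21 without cKO 2. The two-sided exact permutation test gave p = 0.114, where the smallest p that 35 assignments allow is 0.0286. The reads of both genes together were 1807 to 2235 RPM in cKO and 1582 to 1718 RPM in WT. Reads of Gm17275 may enter those of H3f3a, and reads from beyond the gene may enter those of H3f3b. The share, the ratio and the sum are therefore uncertain.

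**Figure D2:**
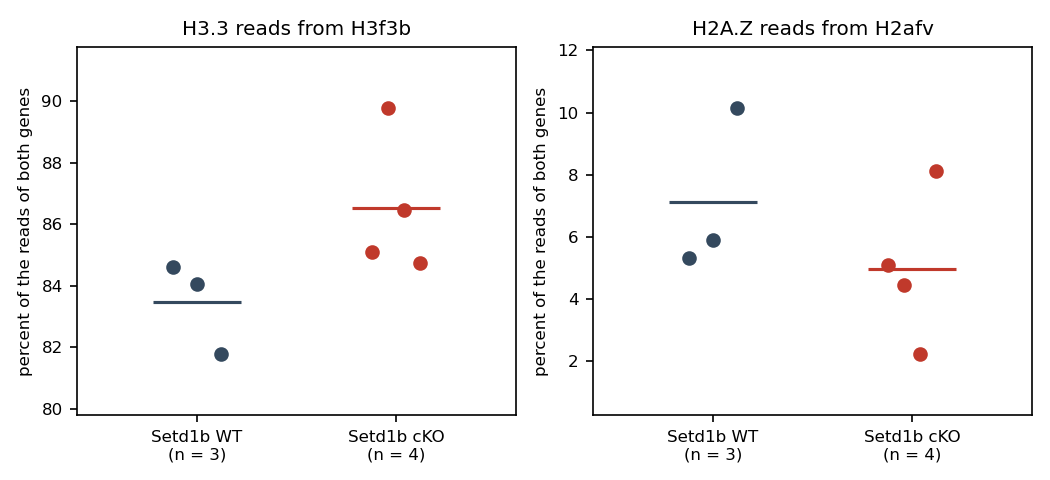
Percent of the H3.3 reads that came from H3f3b (left) and of the H2A.Z reads that came from H2afv (right) in each library (points), with lines at the group means. The vertical axes do not start at 0. The H3f3b share was 84.7% to 89.8% in cKO and 81.8% to 84.6% in WT, whereas the H2afv share overlapped between genotypes.

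H2afz was the most uneven of these genes among cKO oocytes. The paralogues of H2A.Z differ at 3 of 128 residues and at 80 of 384 coding bases. H2afz (chr3:137864350-137866922) had 71.9, 149, 218 and 85.6 RPM in the cKO libraries and 89.2, 72.7 and 81.3 RPM in the WT libraries. The libraries cKO 2 and cKO 3 were above all others, and cKO 1 was the lowest of all 7. The mean was 131 ± 67.0 RPM (SD, n = 4) against 81.1 ± 8.28 RPM (SD, n = 3), with a log2 fold change of 0.55 (SE 0.35, 95% interval -0.22 to 1.33, adjusted p = 0.405 by limma). Without cKO 3 the log2 fold change was 0.26. Its coefficient of variation in cKO was 51.0%, the 94.7th percentile of 2314 transcripts within 2-fold of its mean level, and 10.2% in WT.

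H2afv (chr11:6427229-6444478) was low in every oocyte. It had 3.86, 6.92, 4.96 and 7.57 RPM in cKO and 5.02, 4.55 and 9.17 RPM in WT, and the groups overlapped. The log2 fold change was -0.07 (SE 0.32, 95% interval -0.78 to 0.65). H2afv gave 2.23% to 8.13% of the H2A.Z reads in cKO and 5.33% to 10.1% in WT. The mean log2 ratio of H2afz to H2afv was 4.17 ± 0.78 (SD, n = 4) against 3.55 ± 0.47 (SD, n = 3), and the two-sided exact permutation p was 0.343. The difference of 0.62 was 0.28 without cKO 3 and 0.35 without WT 3.

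H2afy (chr13:56013053-56136018), the macroH2A gene, was also low and did not pass the test. The cKO libraries had 13.4, 9.64, 11.0 and 20.9 RPM and the WT libraries 12.8, 12.1 and 14.3 RPM. The cKO libraries lay on both sides of the WT libraries. The transcript runs well past the gene and also covers Gm47072 on the same strand, with an overlap of 0.506 of the union, so part of its reads may not be of H2afy. The log2 fold change was 0.01 (SE 0.29, 95% interval -0.62 to 0.64), and its sign changed between scalings.

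Slbp (chr5:33632067-33652667) was abundant and had similar means in both genotypes. The cKO libraries had 558, 654, 465 and 307 RPM and the WT libraries 605, 580 and 407 RPM, and the groups overlapped. The mean was 496 ± 148 RPM (SD, n = 4) against 531 ± 107 RPM (SD, n = 3), with a log2 fold change of -0.13 (SE 0.28, 95% interval -0.76 to 0.50, adjusted p = 0.849 by limma). The lowest value, in cKO 4, came from the library with the lowest mean correlation to the others (0.912, against 0.931 to 0.943). The log2 fold change was 0.08 without cKO 4 and -0.31 without WT 3.

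Hira (chr16:18876686-18970309), the subunit that names the H3.3 chaperone complex, was close to the limit of detection. It had 1.19, 1.81, 0.697 and 1.17 RPM in cKO and 1.30, 0.463 and 0.561 RPM in WT, which are 6 to 22 reads, and it reached 1 RPM in 4 libraries. The log2 fold change on the log2(RPM + 1) scale was 0.33 (SE 0.30, 95% interval -0.34 to 0.99). This value moved with the pseudocount and the scaling. It was 0.11 with a pseudocount of 5 RPM, 0.13 after quantile normalisation and 0.72 on the deposited scale. With voom and median-of-ratios scaling it was 0.53, with a 95% interval of -0.94 to 2.00. The table itself names this transcript Gm28539, a gene on the same strand whose span overlaps it.

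**Figure D3:**
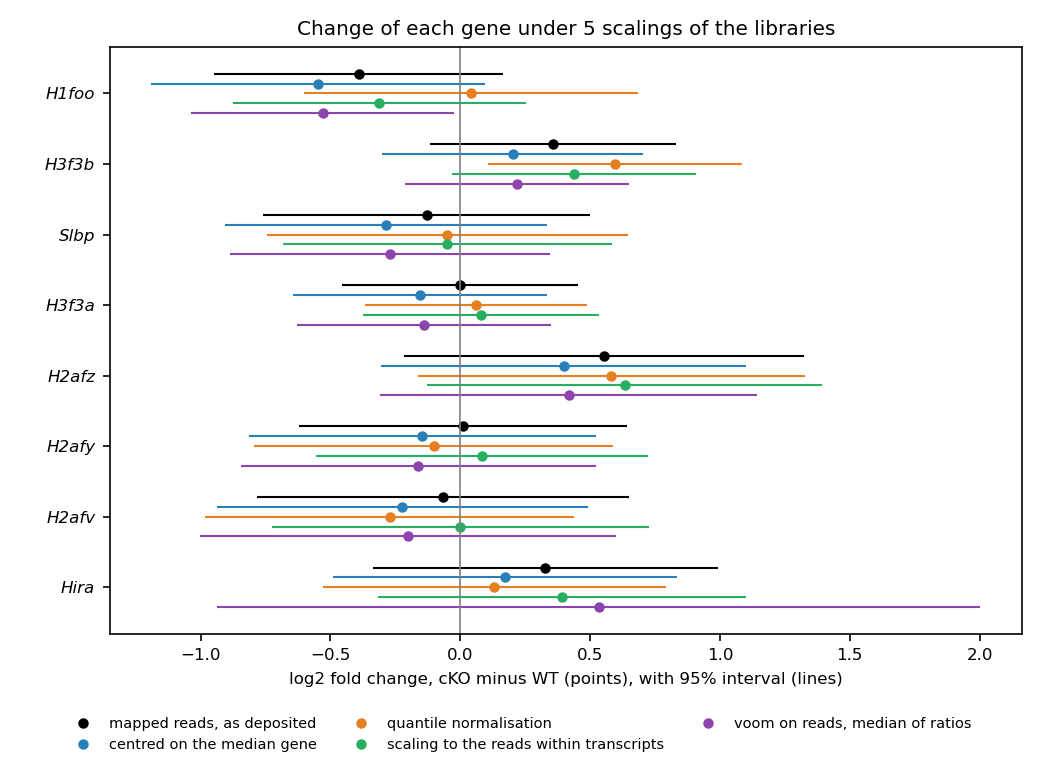
log2 fold change (cKO minus WT, horizontal axis) of each gene with its 95% interval, for the deposited scaling and 4 others, from limma. The intervals that lie wholly on 1 side of 0 are those of H1foo with voom (-1.04 to -0.02) and of H3f3b after quantile normalisation (0.11 to 1.08). H1foo, H2afv, H2afy and H3f3a change sign between scalings.

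The transcript that joins H1f0 to Gcat (chr15:79027014-79038348) cannot be assigned to either gene. H1f0 encodes a linker histone made outside S phase, and Gcat an enzyme of threonine breakdown. The joined transcript had 86.6, 75.2, 54.2 and 18.4 RPM in cKO and 34.98, 25.3 and 18.7 RPM in WT. In cKO 1, cKO 2 and cKO 3 it was above all WT libraries, and cKO 4 was the lowest of all 7. The log2 fold change was 0.96 (SE 0.46, adjusted p = 0.260 by limma), and without cKO 4 it was 1.44 (adjusted p = 0.00971 by limma). The transcript that joins H2afx to Dpagt1 (chr9:44326845-44336365) had 5.34 to 7.11 RPM in cKO and 4.13 to 5.24 RPM in WT. The groups did not overlap but the gap was small, and 20.3% of all transcripts had no overlap. The log2 fold change of this transcript was 0.32 (SE 0.25, adjusted p = 0.518 by limma).

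The CpG content of the promoters set H1foo apart from the other genes, as a description. RefSeq promoter windows (GRCm38.p6, 250 bases before to 50 after the start) matched all 8 genes. The window of H1foo (chr6:115944681-115944980, plus strand) held 5 CpG dinucleotides, and 62.0% of 32851 promoters held at least as many. The windows of the other 7 genes held 22 to 39, against a median of 7 over all promoters. The oocyte transcript of H1foo started 291 bases upstream of the RefSeq start, outside the window, as did those of H2afy (468 bases), H3f3a (576) and H3f3b (6258), so for these 4 the window does not hold the start of the oocyte transcript. Those of H2afv, Slbp, Hira and H2afz (chr3:137864237-137864536, plus strand) started inside their windows. Both windows are printed to show the contrast, with CpG in capitals.
H1foo: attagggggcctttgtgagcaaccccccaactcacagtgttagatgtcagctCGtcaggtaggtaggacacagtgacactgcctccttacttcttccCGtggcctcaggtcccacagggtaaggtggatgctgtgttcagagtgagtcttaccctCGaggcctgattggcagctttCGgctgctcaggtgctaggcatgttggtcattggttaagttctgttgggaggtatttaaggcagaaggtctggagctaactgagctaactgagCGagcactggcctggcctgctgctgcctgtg
H2afz: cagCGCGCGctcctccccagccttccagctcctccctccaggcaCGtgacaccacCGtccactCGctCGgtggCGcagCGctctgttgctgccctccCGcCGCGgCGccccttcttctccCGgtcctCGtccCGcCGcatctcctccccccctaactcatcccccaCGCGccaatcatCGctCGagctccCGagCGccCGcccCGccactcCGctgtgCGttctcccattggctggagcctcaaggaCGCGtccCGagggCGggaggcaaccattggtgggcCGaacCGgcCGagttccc

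Among 11 genes of histone mRNA processing, 10 were tested and 1 rose, while none fell, beside 5.71% of all transcripts past the threshold. That gene was Eri1 (chr8:35465265-35495566), which encodes the exonuclease that shares the stem-loop with SLBP. Eri1 had 68.9, 75.0, 60.8 and 78.9 RPM in the cKO libraries and 9.64, 13.6 and 13.2 RPM in the WT libraries. All 4 cKO oocytes were far above all 3 WT oocytes. The mean was 70.9 ± 7.90 RPM (SD, n = 4) against 12.1 ± 2.17 RPM (SD, n = 3), which is 2.46 higher on the log2 scale (SE 0.22, adjusted p = 0.000719 by limma). It passed under each of 21 alternatives, with log2 fold changes from 2.15 to 2.56. The median log2 fold change of the 10 genes was 0.10, beside 0.12 over all transcripts.

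The 19 other symbols of the table that follow histone names were mostly near the floor, and 10 were tested. Of these 1 rose and none fell, beside 5.71% of all transcripts, with a median log2 fold change of 0.42 against 0.12 over all transcripts. Hist1h1c, which encodes the somatic linker histone H1.2, had 8.12, 7.08, 12.8 and 7.46 RPM in cKO and 0.972, 1.93 and 1.22 RPM in WT, or 12 to 147 reads. Every cKO oocyte was above every WT oocyte. The log2 fold change was 2.04 (SE 0.30, adjusted p = 0.00545 by limma), and it passed under each of 21 alternatives, from 1.11 with a pseudocount of 5 RPM to 2.71 on the deposited scale. The oocyte transcript (chr13:23738798-23747202) runs on past the gene and across Hist1h2bb, so reads from both genes enter the value, and cDNA made from poly(A) tails misses stem-loop mRNAs without a tail. Hist1h2ba (14.8, 9.79 and 12.2 RPM in WT, 17.5 to 18.9 RPM in cKO) and Hist1h4d (1.13 to 2.00 RPM in WT, 2.14 to 4.26 RPM in cKO) also had no overlap without passing. With Hist1h1c, 3 of 10 had none, beside 20.3% of all transcripts. The transcript named Hist1h2ba (chr13:23926903-23949323) is also long, so part of its reads may not be of that gene. The same may hold for other long transcripts behind the median of 0.42. Histone genes share long identical stretches, and reads of low mapping quality had been removed, so the split between copies is uncertain. H3f3aos, 1 of the 19 symbols, is an antisense RNA and was not tested.

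**Figure D4:**
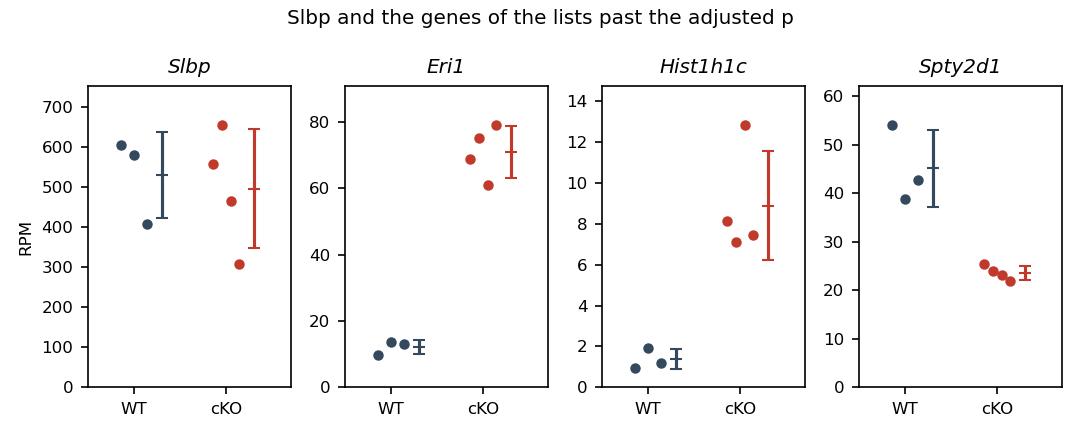
RPM of Slbp, Eri1, Hist1h1c and Spty2d1 in each library (points), with the mean and SD beside them. Eri1 was 60.8 to 78.9 RPM in cKO and 9.64 to 13.6 RPM in WT, whereas Slbp overlapped between genotypes.

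Of 20 chaperones of H3 and H4, none passed the threshold and 1 fell by the adjusted p alone, a share near the 6.15% of all transcripts. Spty2d1, the mammalian SPT2 histone chaperone, had 25.3, 24.0, 23.1 and 21.9 RPM in cKO and 54.0, 38.8 and 42.7 RPM in WT. The groups were clearly apart. Its log2 fold change was -0.90 (SE 0.21, adjusted p = 0.0335 by limma). The call was lost without any single library other than cKO 4, with an adjusted p of up to 0.154 without WT 1, where the log2 fold change was -0.76. Spty2d1 passed the 2-fold threshold with median centring (-1.05) and with voom and median-of-ratios scaling (-1.06). The median log2 fold change of the list was -0.08, and the partners of HIRA, the ubinucleins Ubn1 (-0.26) and Ubn2 (-0.32) and Cabin1 (0.18), did not pass. Daxx and Atrx, which place H3.3 at repeats, had log2 fold changes of -0.08 and 0.58 without passing.

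No gene passed among 8 other histone chaperones tested, 13 genes of H2A.Z exchange or 5 of CENP-A loading, beside 5.71% of all transcripts, and for lists this short a count of 0 is near that share. The chaperones with the most reads, with no correction for length, were Npm1 (1816 ± 198 RPM in cKO, 1685 ± 213 RPM in WT) and Npm2 (887 ± 181 RPM in cKO, 1431 ± 363 RPM in WT). NPM2 is the nucleoplasmin stored by oocytes for remodelling sperm chromatin. Its 4 cKO libraries lay below the 3 WT libraries, and 20.3% of all transcripts had no overlap in either direction. The log2 fold change of Npm2 was -0.68 (SE 0.26, adjusted p = 0.146 by limma). Among the H2A.Z exchange genes, Ep400, an ATPase that inserts H2A.Z, had a log2 fold change of 0.33 and Actl6a, a shared actin-related subunit, -0.28. The value of Actl6a ran from -0.54 without WT 3 to 0.03 without cKO 4. Hjurp, the CENP-A chaperone, had a log2 fold change of -0.10. The medians of these lists were 0.06, 0.03 and -0.10 on the log2 scale.

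**Figure D5:**
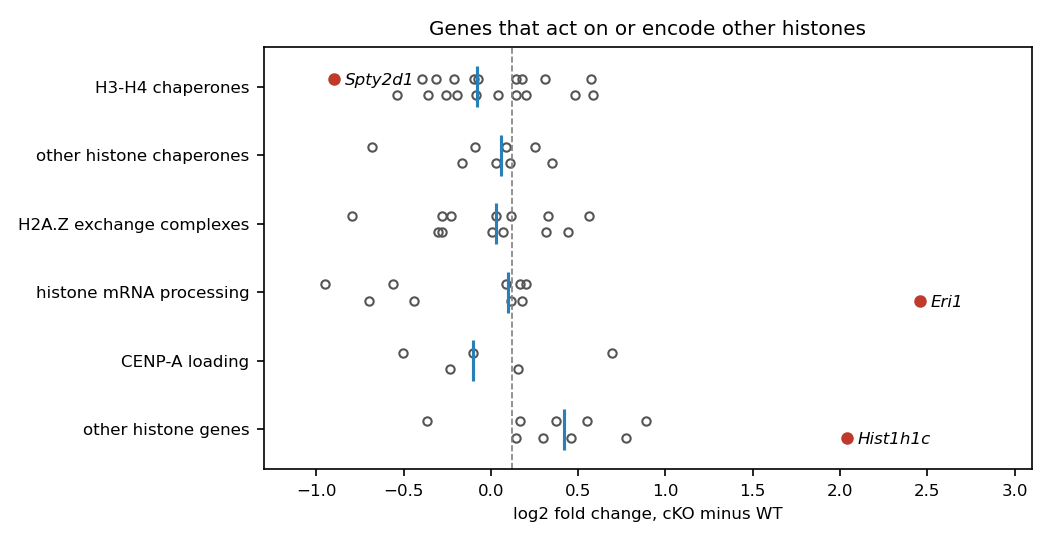
log2 fold change (cKO minus WT, horizontal axis) of each tested gene in 6 lists, with filled points for genes with an adjusted p under 0.05, a short line at the list median and a dashed line at the median of all transcripts (0.12). Eri1 (2.46), Hist1h1c (2.04) and Spty2d1 (-0.90) are the filled points.

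Markers of oocytes and of the granulosa cells around them were both checked. All 12 oocyte markers found in the table were at 1 RPM or above in each library, and their sum was 11537 to 17359 RPM in cKO and 16154 to 22134 RPM in WT. Their median log2 fold change was -0.42, and 2 of the 12 were above 0. Mos, named after its values were seen, was the marker that passed, with a log2 fold change of -1.34 (adjusted p = 0.00581 by limma). The 15 granulosa markers found summed to 77.4 to 90.5 RPM in cKO and 50.4 to 71.3 RPM in WT, mostly Nr5a2 and Cyp19a1, while Foxl2 and Amh had at most 3 reads and Krt18 none in any library. Of the 6 tested, 5 had log2 fold changes above 0 with a median of 0.39 and none passed. Inha, an inhibin subunit of granulosa cells, had 7.03, 11.4, 13.2 and 0.583 RPM in cKO and 0.810, 4.32 and 0 RPM in WT. The part of these differences in the histone genes was not tested. Reads within transcripts made up 83.6% to 86.8% of mapped reads in cKO and 90.1% to 90.4% in WT. Setd1b itself had 2.68 to 16.7 RPM in cKO and 8.61 to 17.7 RPM in WT, summed over the whole transcript, so a deletion of part of the gene need not lower it. A lower RPM of 1 gene can also be a higher amount of other RNA, since RPM is a share of each library.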

How the data were processed

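cDNA of single oocytes was amplified from poly(A) tails with the SMARTer kit. The authors trimmed the reads, mapped them with Hisat to GRCm38, removed hits of low mapping quality and quantified previously defined oocyte transcripts in SeqMonk, with isoforms merged. The submitters' processing notes also name bcl2fastq 1.8.4 and featureCounts 1.4.4. The strand setting of the counting is not given in the sources used here, and no library step that keeps strand is described. The deposited values are log2 RPM. Reads recovered from them were whole (within 0.01, for values up to 1000 reads) for 100% of the values.

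Listed genes were taken by the name in the table on the same strand and, failing that, by overlap with GENCODE M21 of at least 0.5 of the union of spans, whatever the table called the transcript. Other transcripts were named by that overlap and, failing that, by the table. Genotypes were compared on log2(RPM + 1) with limma 3.58.1 (R 4.3.3, intensity trend) over the 18179 transcripts that reached 1 RPM in 3 or more libraries, with Benjamini-Hochberg adjustment, and the script was tested on simulated data. Fold changes of low transcripts are understated on this scale. Ratios of paralogues were compared with exact permutation tests. Named genes were all listed genes, list genes past the adjusted p (or, failing that, the 2 with the highest mean) and the 5 most like H1foo. Ubn1, Ubn2, Cabin1, Daxx, Atrx, Hist1h2ba, Hist1h4d and the markers were named outside this rule, after their values were seen. A gene that this rule names is not reported here. The members, lists and rules were chosen with earlier results of these data known. The alternatives covered pseudocounts, filters, scalings, weights, a replicate block, voom on the recovered reads and leaving out each library.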

Additional observations from a re-analysis of the deposited data

How the results depend on the processing

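Across 21 alternatives (20 for Hira, which a minimum mean of 4 RPM removed) none of the 8 genes passed the adjusted p, and neither paralogue ratio passed its exact permutation test in the 9 alternatives run for it, a test that cannot reach a p under 0.05 once a library is left out. H3f3b, H2afz and Hira were above 0 in every alternative, while H1foo changed sign after quantile normalisation (0.04), and H2afv, H2afy, H3f3a and Slbp took both signs. Eri1, Hist1h1c and Mos passed in all 21. The number of genes past the threshold, 1038 as reported, was 553 with a pseudocount of 5 RPM, 303 without a filter on low values (more transcripts tested) and 1751 with library quality weights. Leaving out 1 library gave 289 (without WT 2) to 1292 (without cKO 4) genes. The cause of these differences was not tested.

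With the replicate number as a replicate block, 1403 genes passed. The block leaves cKO 4 without a partner, and deviations of same-numbered libraries correlated at 0.19, 0.29 and -0.13, so the numbers were not taken to pair the samples. The joined H1f0 and Gcat transcript passed with the block (log2 fold change 1.44, adjusted p = 0.00359 by limma) and with library quality weights (1.18, adjusted p = 0.0341), and Npm2 passed with the block (-0.80, adjusted p = 0.0185). Summing several rows for a gene was not run, since each gene found by name had 1 row. The alternatives for H1f0 and H2afx as genes of their own were not run, since each has only a joined transcript. With 4 and 3 libraries the 95% intervals stayed wide: that of H2afz reached 1.33 and that of H1foo -0.95 on the log2 scale, so the lack of a call does not show equal levels.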
